A study of Mus musculus with 15 samples.

Results

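The 40 genes described here encode factors that make ribosomes in the nucleolus, and they were chosen by symbol from a list of nucleolar, MYC-responsive genes. The rule itself used no measured value, but the genes were chosen with earlier results of these data known. All 40 were found among the 22063 genes of the expression table, and all 40 passed the filter on low values. RNA sequencing of colon from wild-type C57BL/6 mice gave 15 libraries, 5 in each of 3 groups, all with colon epithelial cells as their labelled cell type. The WMW-H libraries carry that name as their only treatment label, and the study's title and design place them within the azoxymethane and dextran sulfate sodium (AOM/DSS) model of colorectal cancer. The model libraries are labelled AOM/DSS, a carcinogen followed by an agent that inflames the colon. The control libraries are labelled as controls with no agent named. The title names Wumei Wan, and the labels do not spell out WMW-H. Its dose, the timing, and the age and sex of the animals are not given in the sources used here. The labels number the libraries of a group as replicates without saying that each came from a separate animal, so the p-values measure the spread between libraries, which may be technical.

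Ribosome production starts in the nucleolus, where RNA polymerase I copies the ribosomal DNA into 1 long precursor RNA. Small nucleolar ribonucleoproteins (snoRNPs) modify that precursor: box C/D particles add methyl groups and box H/ACA particles convert uridine to pseudouridine. Assembly factors then fold and cut the precursor into the small and the large subunit, which leave the nucleus separately. The transcription factor MYC is a known activator of genes at every one of these steps, and ribosome production is known to be high in growing intestinal crypts and in colorectal tumours.

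Values are FPKM, fragments scaled to transcript length and to library depth, as the authors deposited them. Changes are differences of mean log2(FPKM + 1), a scale that understates the change of weakly expressed genes. Called genes had an adjusted p under 0.05 in limma with Benjamini-Hochberg adjustment over 12917 genes, those reaching 1 FPKM in 5 or more libraries. Low values in the libraries moved in steps of whole fragments, which put their depth at 16200000 to 21000000 fragments. Epithelial markers were abundant in all groups, with Epcam at 878 ± 33.8 FPKM in WMW-H, 825 ± 9.37 FPKM in model and 733 ± 4.40 FPKM in control libraries (SD, n = 5 each). Krt8 ran the other way, at 2109 ± 54.9 FPKM in WMW-H, 2563 ± 18.8 FPKM in model and 2709 ± 14.2 FPKM in control libraries. The 10 epithelial markers together, none at 0, took 1.35 to 1.45% of the FPKM total in WMW-H, 1.66 to 1.68% in model and 1.63 to 1.64% in control libraries. Markers of other tissues and cell types differed between the groups: 30 pancreas genes together took 2.55 to 2.69% of the FPKM total in WMW-H, 1.49 to 1.53% in model and 6.40 to 6.48% in control libraries. Genes of male accessory glands (12 in the table) took 0.554 to 0.577% in the model libraries, against at most 8.62e-04% in any WMW-H and 7.24e-04% in any control library. Fibroblast markers (6 of 6 detected) took 0.0710 to 0.0790% in WMW-H, 0.0643 to 0.0679% in model and 0.0378 to 0.0396% in control libraries, and immune markers (15) took 0.0824 to 0.0938% in WMW-H, 0.0629 to 0.0680% in model and 0.114 to 0.118% in control libraries, with S100a8 at 0 in control. Most of that immune sum was Jchain, a plasma cell gene, at 374 ± 22.0 FPKM in WMW-H, 192 ± 9.27 FPKM in model and 500 ± 11.2 FPKM in control libraries. Other immune markers ran differently: the myeloid gene Csf1r was 34.8 ± 4.14 FPKM in WMW-H, 37.5 ± 6.12 FPKM in model and 25.8 ± 2.12 FPKM in control libraries. Of the 15 immune markers 6 were called higher and 8 lower in the model than in control. Smooth muscle markers (7 of 7 detected) took 0.392 to 0.414% in WMW-H, 0.405 to 0.419% in model and 0.388 to 0.403% in control libraries. Paneth cell genes (14 in the table) took 0.245 to 0.272% in WMW-H, 0.304 to 0.317% in model and 0.251 to 0.255% in control libraries. Of 13 tested, 12 were higher and 1 lower in the model than in control (log2 changes of -1.50 to 6.48, median log2 change 4.88). The summed share changed far less than most of these genes did, so it does not stand for the list. With WMW-H 12 were lower and 1 higher than in the model (median -2.69). The part of these differences in the results was not tested, apart from a scaling that leaves the other-tissue genes (pancreas, male accessory gland and Paneth cell lists) out of the library total.

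In the model, 20 of the 40 genes rose against control, 3 fell and 17 did not pass the test. The risers were led by Mybbp1a, a nucleolar regulator, the H/ACA proteins Nhp2 and Gar1, and the C/D core protein Nop56, and 10 of 12 large-subunit factors were among them. Nop58, the partner of Nop56, and Dkc1, the pseudouridine synthase of the H/ACA particle, fell. The share that rose, 50.0%, was near the share of all tested genes that rose, 45.5%, so the count of risers is not a result about these genes. Of all tested genes 20.6% fell. Groups did not overlap for 15 of the rising and 2 of the falling genes, against 36.9% and 16.0% of all tested genes. Their median log2 change was 0.14, against 0.12 for all tested genes, and the median size of the change was 0.17 on the log2 scale, against 0.23 for all tested genes. In bulk colon, fewer cells of a type and less RNA per cell cannot be told apart.

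With WMW-H, 21 of the 40 genes fell against the model, 6 rose and 13 did not pass the test. All 3 RNA polymerase I subunits among the 40 fell, with 8 of 12 large-subunit factors and 6 of 13 small-subunit factors. Dkc1 and Nop58 rose most, followed by Ncl, which encodes nucleolin. Of all tested genes 40.9% fell and 25.9% rose, where 52.5% of the 40 fell. The libraries of the 2 groups did not overlap for 19 of the falling genes and 3 of the rising ones, against 32.3% and 18.8% of all tested genes. The median log2 change of the 40 genes was -0.17, against -0.07 for all tested genes. The count of risers was not stable. It was 3 without model replicate 2, with TPM (FPKM scaled to a common library total) and with the total without other-tissue genes. The rises of Wdr43 and Wdr12 were lost on leaving out any of 9 and any of 6 libraries in turn.

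Against control, WMW-H libraries had 12 genes higher and 10 lower, and 18 did not pass the test. The H/ACA genes Gar1, Nhp2 and Dkc1 rose most, and Polr1b, Bysl and Bop1 fell most. Among all tested genes 35.4% were higher and 24.1% lower, where 12 and 10 of the 40 were, and groups without overlap were found for 8 higher and 4 lower genes, against 25.3% and 17.0% of all tested genes. The median log2 change was 0.02 for the 40 genes, against 0.05 for all tested genes. The 3 comparisons share their groups pairwise, so each gene's values are given side by side and the comparisons are not independent of each other. Of the 40 genes, 14 were called higher in the model than in control and lower with WMW-H than in the model, 2 (Nop58 and Dkc1) were called the opposite way, and 5 (Heatr1, Imp4, Noc3l, Tsr1 and Utp20) were called in no comparison. Of all tested genes 45.5% were higher in the model than in control, and 40.9% were lower with WMW-H than in the model. The share of all tested genes with both calls was not counted. Both calls use the same model libraries, so the 14 are not shown to be particular to these genes.

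**Figure D1:**
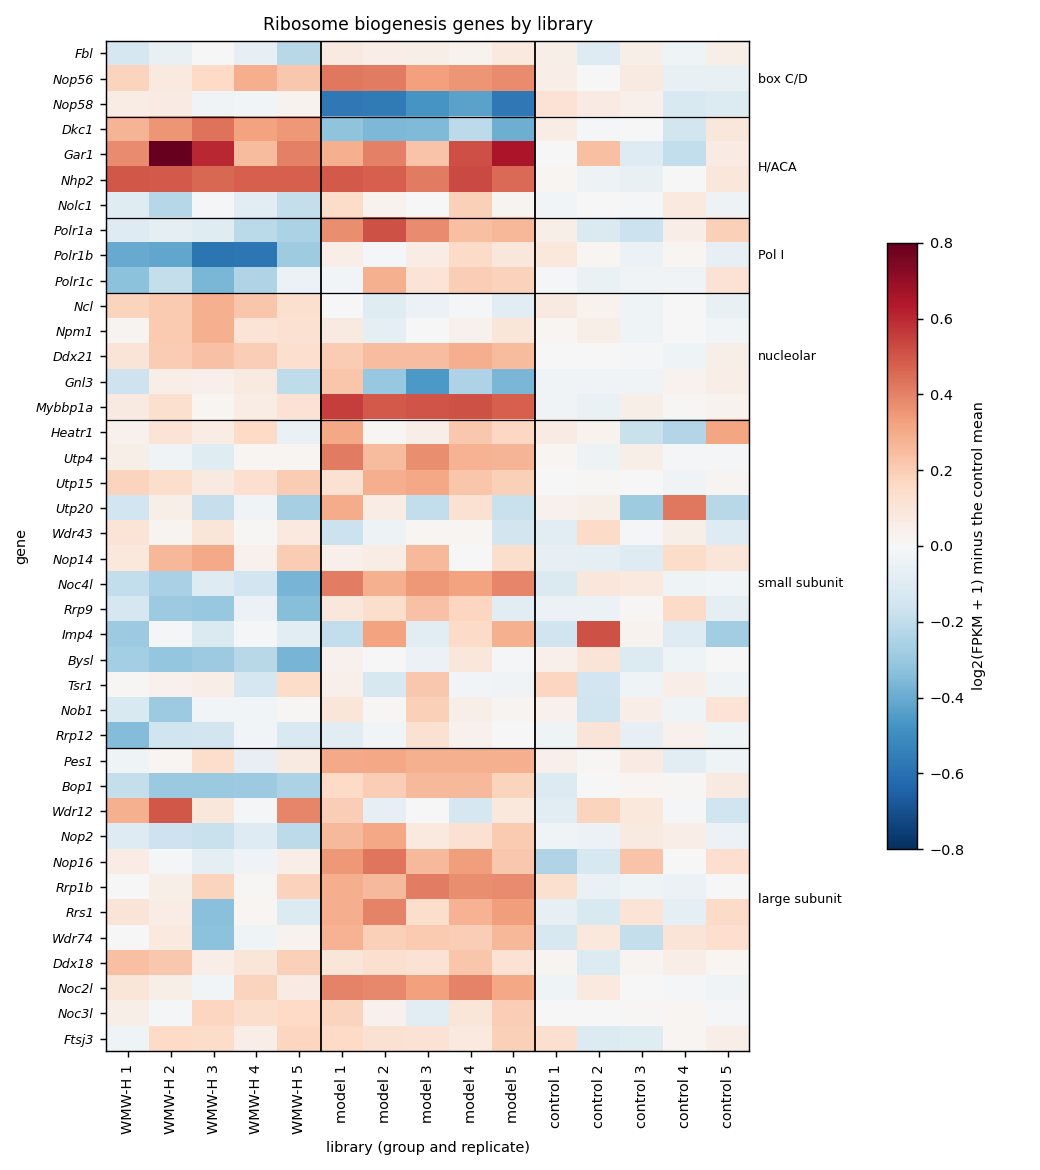
Each row is a gene, grouped by role, and each column a library, with colour giving log2(FPKM + 1) minus the control mean. Nop56, Nhp2 and Mybbp1a are red in all 5 model libraries and Nop58 and Dkc1 are blue there, while Polr1b is blue in all 5 WMW-H libraries.

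The choice of scaling moved these counts. The median log2 change of all tested genes between model and control was 0.12 in the deposited values and 0.00 after median-of-ratios size factors, so the median gene lies 0.12 above 0 in that comparison on the deposited scale. Relative to that median, the 40 genes' median was 0.02 in model against control, -0.09 for WMW-H relative to model and -0.03 for WMW-H relative to control, where the all-gene median is 0.05. With size factors, 13 genes rose and 5 fell in the model against control, and with quantile normalization 11 rose and 6 fell. Under all 5 scalings compared, 11 genes rose and 2 fell in model against control (27.1% and 17.5% of all tested genes), 3 rose and 17 fell for WMW-H relative to model (22.1% and 32.3%), and 6 rose and 10 fell for WMW-H relative to control (26.6% and 23.8%). The 11 that rose in the model under every scaling were Nop56, Nhp2, Polr1a, Ddx21, Mybbp1a, Utp4, Noc4l, Pes1, Nop16, Rrp1b and Noc2l, and the 2 that fell were Nop58 and Dkc1.

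**Figure D2:**
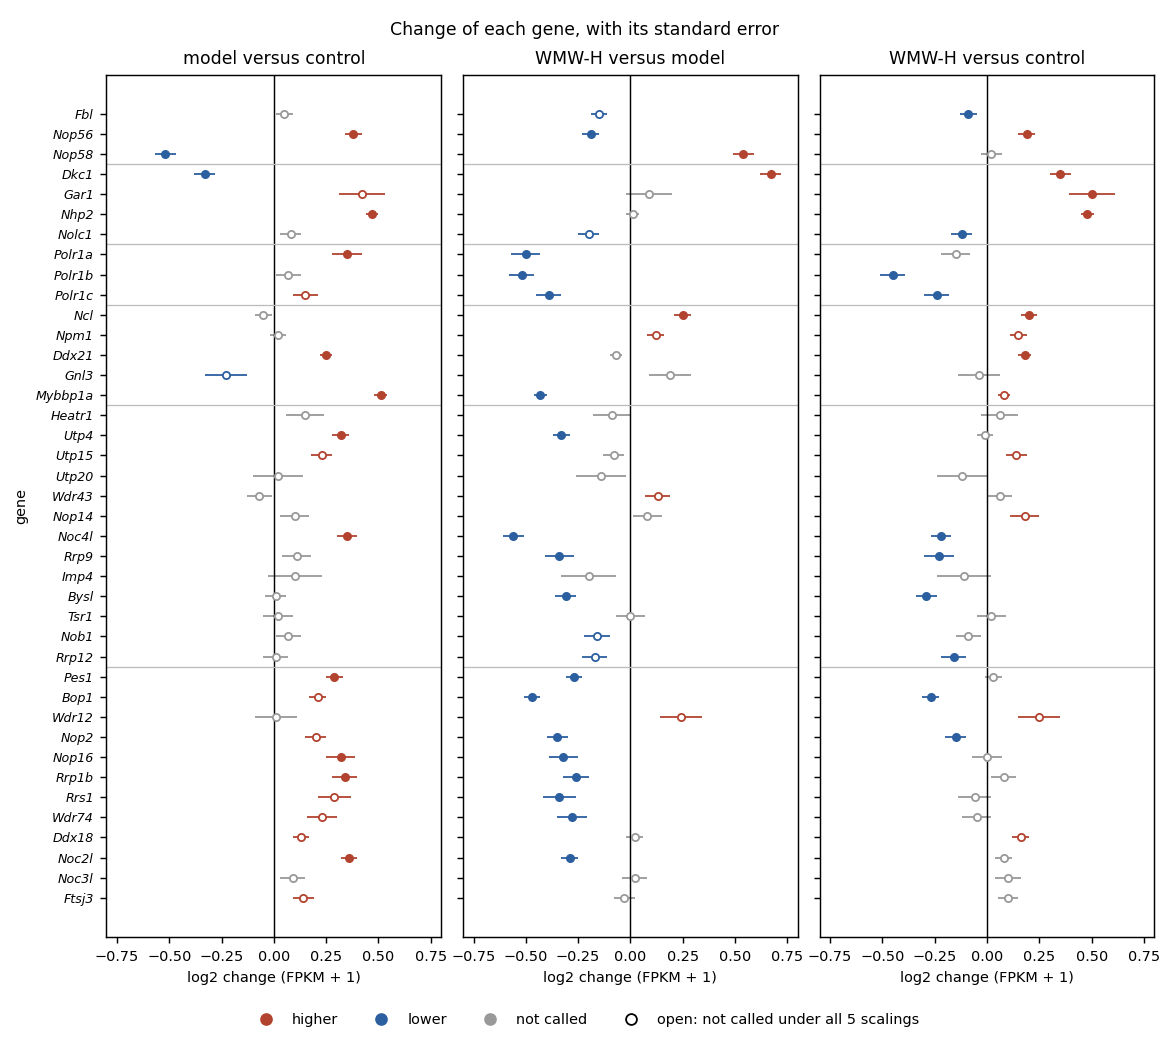
Points give the log2 change of each gene in FPKM + 1 and lines 1 standard error, for the 3 comparisons, with genes in order of role. Filled points are calls made under all 5 scalings. On the deposited scale shown, large-subunit genes lie to the right of 0 in model against control, and most lie to the left of 0 for WMW-H relative to model. In model against control the sign of Ddx18, Ftsj3, Wdr12 and Noc3l turned under another scaling.

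MYC and its partner MAX bind the letters CACGTG, called an E-box. Promoters of 250 bases before and 50 after the annotated start were taken from RefSeq (GRCm38.p6) for 35 of the 40 genes, and Fbl, Npm1, Rrp12, Bop1 and Rrs1 had no entry. The letters, which read the same on both strands, were present in 8 of the 35 genes (22.9%), against 2187 of 27025 genes in the RefSeq table (8.09%). The 8 were Mybbp1a, Utp4, Utp20, Wdr43, Imp4, Tsr1, Pes1 and Nop2. The 27025 genes were not limited to those expressed in these libraries, and the 40 had been listed as MYC-responsive. The 2 shares are therefore not like for like. The match was present in 4 of 18 genes with a promoter that rose in the model, 0 of 3 that fell and 4 of 14 not called, and in 4 of 17 that fell with WMW-H against the model, 1 of 5 that rose and 3 of 13 not called. For WMW-H relative to control it was in 1 of 11 higher, 1 of 7 lower and 6 of 17 genes not called. A match describes letters in this window and nothing about binding. Shown are 70 bases before and 50 from the annotated start onward for the C/D partners that moved in opposite directions in the model (Nop56, Nop58), for Dkc1, which fell there too, and for the 4 called genes with a match in the shown stretch and a fall with WMW-H (Mybbp1a, Utp4, Pes1, Nop2). Capitals mark CACGTG, and all 7 genes lie on the plus strand, at chr2:130274342-130274461 for Nop56, chr1:59684936-59685055 for Nop58, chrX:75095784-75095903 for Dkc1, chr11:72441257-72441376 for Mybbp1a, chr8:106893570-106893689 for Utp4, chr11:3963905-3964024 for Pes1 and chr6:125131813-125131932 for Nop2.
Nop56: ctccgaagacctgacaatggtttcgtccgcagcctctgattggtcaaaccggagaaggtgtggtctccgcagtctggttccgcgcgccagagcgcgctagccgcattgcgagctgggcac
Nop58: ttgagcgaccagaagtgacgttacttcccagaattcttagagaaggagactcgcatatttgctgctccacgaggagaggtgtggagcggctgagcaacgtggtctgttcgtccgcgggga
Dkc1: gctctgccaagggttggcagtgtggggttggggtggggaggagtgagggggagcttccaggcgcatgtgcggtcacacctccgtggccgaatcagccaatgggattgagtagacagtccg
Mybbp1a: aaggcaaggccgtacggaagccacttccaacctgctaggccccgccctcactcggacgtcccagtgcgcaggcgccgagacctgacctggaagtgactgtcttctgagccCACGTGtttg
Pes1: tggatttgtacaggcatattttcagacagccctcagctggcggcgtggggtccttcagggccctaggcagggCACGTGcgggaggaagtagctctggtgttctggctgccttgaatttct
Utp4: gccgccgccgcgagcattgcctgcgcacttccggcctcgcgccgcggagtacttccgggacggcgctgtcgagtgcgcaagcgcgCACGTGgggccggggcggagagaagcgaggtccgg
Nop2: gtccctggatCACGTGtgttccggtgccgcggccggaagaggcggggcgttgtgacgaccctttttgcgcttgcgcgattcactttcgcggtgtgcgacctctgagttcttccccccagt
Counted from 0 at the start, the match began at position 40 in Mybbp1a, 15 in Utp4, 2 in Pes1 and -60 in Nop2. The stretches of Nop56, Nop58 and Dkc1 held none, and neither did their full promoters.

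The box C/D particle carries Fbl, the fibrillarin methyltransferase, on a core of Nop56 and Nop58. Its genes moved in different directions. Nop56 stood at 27.2, 25.3, 26.8, 29.4 and 27.9 FPKM in WMW-H libraries, 32.3, 32.2, 30.3, 30.8 and 31.3 FPKM in the model libraries and 24.8, 23.8, 25.2, 22.9 and 22.9 FPKM in the control libraries. The 3 groups did not overlap, with the model highest and control lowest. Nop56 rose by 0.38 ± 0.04 (log2 change ± SE) in the model against control (limma, Benjamini-Hochberg adjusted p = 2.22e-07), fell by 0.19 ± 0.04 with WMW-H against the model (adjusted p = 3.65e-04) and was 0.19 ± 0.04 higher in WMW-H than in control (adjusted p = 6.67e-04).

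Nop58 stood at 27.7, 27.9, 26.0, 26.2 and 27.1 FPKM in WMW-H libraries, 17.5, 17.6, 18.9, 19.5 and 17.5 FPKM in the model libraries and 28.9, 27.9, 27.4, 24.3 and 24.6 FPKM in the control libraries. Every model library was below every WMW-H and control library, and the WMW-H and control libraries overlapped. The log2 change of Nop58 was -0.52 ± 0.05 in model against control (limma, adjusted p = 4.94e-08), 0.54 ± 0.05 for WMW-H relative to model (adjusted p = 3.62e-08) and 0.02 ± 0.05 for WMW-H relative to control (adjusted p = 0.727). The ratio of Nop58 to Nop56 in FPKM was 0.990 ± 0.078 in WMW-H, 0.581 ± 0.044 in model and 1.11 ± 0.053 in control libraries (SD, n = 5 each), a description of a pair chosen after its values were seen. Fbl stood at 48.7, 51.4, 53.7, 51.0 and 45.8 FPKM in WMW-H libraries, 56.2, 55.5, 55.2, 54.6 and 56.6 FPKM in the model libraries and 55.3, 49.8, 55.2, 52.2 and 55.3 FPKM in the control libraries. The model libraries lay above all WMW-H libraries and overlapped the control libraries. Fbl fell by 0.15 ± 0.04 with WMW-H against the model (adjusted p = 0.00298), a call lost with size factors and with quantile normalization. Its log2 change of -0.09 ± 0.04 for WMW-H relative to control (adjusted p = 0.0473) was lost on leaving out any of 11 libraries in turn (adjusted p of 0.0538 to 0.142): control replicates 1, 3 and 5, all 5 model replicates, and WMW-H replicates 1, 4 and 5.

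**Figure D3:**
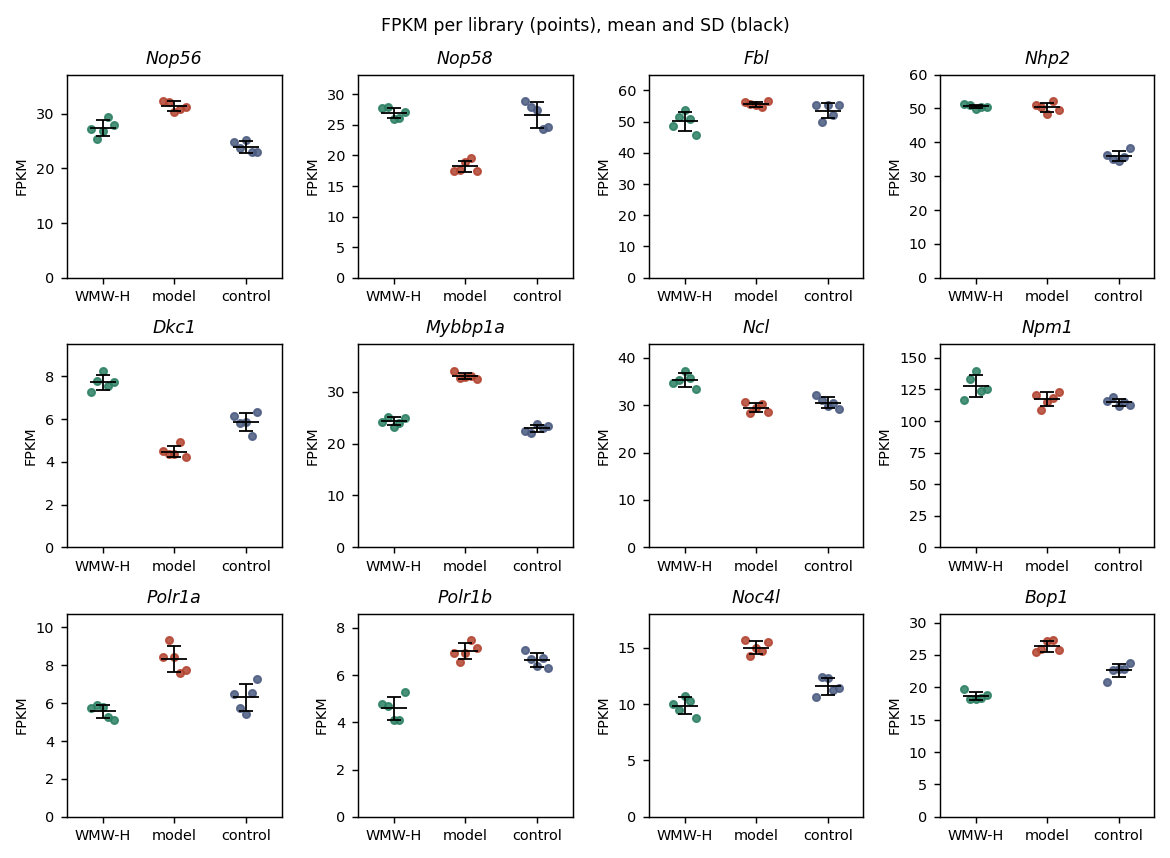
Points give FPKM in each library for 12 of the genes, with black lines for the mean and SD of each group of 5. The model libraries of Nop58 and Dkc1 sit below all others, those of Mybbp1a sit above all others, and the WMW-H libraries of Polr1b sit below all others.

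The box H/ACA particle holds Dkc1, the pseudouridine synthase dyskerin, with Gar1 and Nhp2, and Nolc1 is a chaperone of snoRNPs. Dkc1 stood at 7.28, 7.77, 8.27, 7.57 and 7.73 FPKM in WMW-H libraries, 4.50, 4.35, 4.37, 4.93 and 4.24 FPKM in the model libraries and 6.16, 5.83, 5.86, 5.20 and 6.32 FPKM in the control libraries. No group overlapped another, with WMW-H highest and the model lowest. Dkc1 fell by 0.33 ± 0.05 in the model against control (limma, adjusted p = 4.40e-05), rose by 0.67 ± 0.05 with WMW-H against the model (adjusted p = 9.25e-09) and was 0.35 ± 0.05 higher in WMW-H than in control (adjusted p = 3.25e-05). Nhp2 stood at 51.2, 51.0, 49.8, 50.5 and 50.5 FPKM in WMW-H libraries, 50.9, 50.4, 48.4, 52.2 and 49.6 FPKM in the model libraries and 36.3, 35.0, 34.5, 35.8 and 38.3 FPKM in the control libraries. All WMW-H and model libraries were above all control libraries, and WMW-H and model overlapped. The log2 change of Nhp2 was 0.47 ± 0.03 in model against control (adjusted p = 2.40e-10), 0.01 ± 0.03 for WMW-H relative to model (adjusted p = 0.815) and 0.48 ± 0.03 for WMW-H relative to control (adjusted p = 3.87e-10).

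Gar1 stood at 11.9, 17.2, 14.1, 10.8 and 12.1 FPKM in WMW-H libraries, 11.1, 12.1, 10.6, 13.2 and 14.6 FPKM in the model libraries and 8.89, 10.7, 8.24, 7.67 and 9.37 FPKM in the control libraries. The WMW-H libraries overlapped the model, 1 control library reached into the model's range, and every WMW-H library was above every control library. Gar1 rose by 0.42 ± 0.11 in the model against control (limma, adjusted p = 0.00319), a call lost with quantile normalization, and by 0.50 ± 0.11 for WMW-H relative to control (adjusted p = 8.82e-04). The ratio of Dkc1 to Nhp2 was 0.153 ± 0.009 in WMW-H, 0.0890 ± 0.004 in model and 0.163 ± 0.010 in control libraries. It sets a gene that fell in the model over one that rose there, so it is a description only. Nolc1 stood at 19.1, 17.3, 20.2, 19.2 and 17.8 FPKM in WMW-H libraries, 22.8, 20.9, 20.5, 23.5 and 20.8 FPKM in the model libraries and 20.1, 20.5, 20.2, 21.6 and 19.9 FPKM in the control libraries. The model was the highest group, without overlap with WMW-H. Nolc1 fell by 0.20 ± 0.05 with WMW-H against the model (adjusted p = 0.00108), a call lost with quantile normalization, and by 0.12 ± 0.05 against control (adjusted p = 0.0310). The second call was lost on leaving out control replicate 2 or 4 or WMW-H replicate 2 or 5 (adjusted p of 0.0517 to 0.0887).

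RNA polymerase I was covered by its largest subunit Polr1a, its second-largest subunit Polr1b, and Polr1c, which it shares with RNA polymerase III. All 3 fell with WMW-H against the model, under every scaling. Polr1a stood at 5.77, 5.89, 5.81, 5.25 and 5.11 FPKM in WMW-H libraries, 8.42, 9.33, 8.45, 7.59 and 7.76 FPKM in the model libraries and 6.50, 5.72, 5.45, 6.54 and 7.30 FPKM in the control libraries. The model libraries were above all others, and WMW-H and control overlapped. Polr1a rose by 0.35 ± 0.07 in the model against control (limma, adjusted p = 2.88e-04) and fell by 0.50 ± 0.07 with WMW-H against the model (adjusted p = 7.70e-06), while its log2 change for WMW-H relative to control was -0.15 ± 0.07 (adjusted p = 0.0765). That last change passed the threshold with size factors (-0.20, adjusted p = 0.0253), quantile normalization (-0.23, adjusted p = 0.0109) and the total without other-tissue genes (-0.20, adjusted p = 0.0201), and without control replicate 2 (adjusted p = 0.0491) or 3 (adjusted p = 0.0257). Polr1b stood at 4.77, 4.71, 4.08, 4.11 and 5.27 FPKM in WMW-H libraries, 6.93, 6.57, 6.95, 7.48 and 7.13 FPKM in the model libraries and 7.08, 6.70, 6.39, 6.73 and 6.29 FPKM in the control libraries. Every WMW-H library was below every model and control library, and model and control overlapped. The ratio of Polr1b to Polr1a was 0.829 ± 0.123 in WMW-H, 0.851 ± 0.107 in model and 1.06 ± 0.129 in control libraries (mean ± SD). Polr1b fell by 0.52 ± 0.06 with WMW-H against the model (adjusted p = 6.94e-07) and by 0.45 ± 0.06 against control (adjusted p = 4.91e-06), with a log2 change of 0.07 ± 0.06 in model against control (adjusted p = 0.317).

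Polr1c averaged 25.1 ± 2.31 FPKM in WMW-H, 33.0 ± 2.68 FPKM in model and 29.6 ± 1.48 FPKM in control libraries. It fell by 0.39 ± 0.06 with WMW-H against the model (limma, adjusted p = 3.22e-05), with no overlap, and by 0.24 ± 0.06 against control (adjusted p = 0.00328), with overlap. The call in model against control, 0.15 ± 0.06 (adjusted p = 0.0409), was lost on leaving out control replicate 1, 2, 3 or 4 or model replicate 2, 4 or 5 (adjusted p of 0.0672 to 0.116). It was also lost with size factors (0.02, adjusted p = 0.771), quantile normalization (0.04, adjusted p = 0.545), the total without other-tissue genes (adjusted p = 0.0678), no filter (adjusted p = 0.0598) and moderation without a trend (adjusted p = 0.0531).

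Among the abundant nucleolar proteins and regulators are nucleolin (Ncl) and nucleophosmin (Npm1), which bind precursor RNA and chaperone assembly, the RNA helicase Ddx21, nucleostemin (Gnl3) and the MYB-binding protein Mybbp1a. Ncl stood at 34.6, 35.4, 37.3, 35.7 and 33.4 FPKM in WMW-H libraries, 30.6, 28.4, 29.5, 30.3 and 28.6 FPKM in the model libraries and 32.1, 31.1, 29.8, 30.4 and 29.2 FPKM in the control libraries. The WMW-H libraries were above all others, and model and control overlapped. Ncl rose by 0.25 ± 0.04 with WMW-H against the model (limma, adjusted p = 8.13e-06) and by 0.20 ± 0.04 against control (adjusted p = 9.90e-05), with a log2 change of -0.05 ± 0.04 in model against control (adjusted p = 0.243). Npm1 stood at 117, 133, 140, 124 and 125 FPKM in WMW-H libraries, 121, 109, 115, 118 and 123 FPKM in the model libraries and 116, 119, 112, 115 and 113 FPKM in the control libraries. All 3 groups overlapped. Npm1, the most abundant of the 40 transcripts per length in every group, was called higher with WMW-H than in the model (0.12 ± 0.04, adjusted p = 0.0159) and than in control libraries (0.15 ± 0.04, adjusted p = 0.00625), but the first call was lost without model replicate 2 (adjusted p = 0.0502), with TPM and without the other-tissue genes, and the second with size factors and without the other-tissue genes.

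Mybbp1a stood at 24.2, 25.2, 23.2, 24.0 and 24.9 FPKM in WMW-H libraries, 34.1, 32.7, 32.9, 33.1 and 32.4 FPKM in the model libraries and 22.5, 22.1, 23.7, 23.1 and 23.4 FPKM in the control libraries. The model libraries were above all others. Mybbp1a rose by 0.51 ± 0.03 in the model against control (limma, adjusted p = 1.34e-10), the largest rise among the 40 in that comparison, and fell by 0.43 ± 0.03 with WMW-H against the model (adjusted p = 1.87e-09). Its call for WMW-H relative to control, 0.08 ± 0.03 (adjusted p = 0.0347), was lost with 4 of the scalings and on leaving out control replicate 1 or 2 or WMW-H replicate 1, 2 or 5 (adjusted p of 0.0508 to 0.0901). Ddx21 averaged 23.1 ± 0.87 FPKM in WMW-H, 24.3 ± 0.55 FPKM in model and 20.3 ± 0.44 FPKM in control libraries, and it rose against control by 0.25 ± 0.03 in the model (adjusted p = 2.48e-06) and by 0.18 ± 0.03 with WMW-H (adjusted p = 1.36e-04). Gnl3 stood at 9.09, 10.7, 10.6, 10.9 and 8.81 FPKM in WMW-H libraries, 12.2, 8.17, 7.21, 8.50 and 7.76 FPKM in the model libraries and 10.1, 10.1, 10.1, 10.5 and 10.7 FPKM in the control libraries. Model replicate 1 stood above every other library, and the other 4 model libraries stood below all WMW-H and control libraries. The call of Gnl3 in model against control, -0.23 ± 0.10 (adjusted p = 0.0491), was lost on leaving out any 1 library other than model replicate 1 or WMW-H replicate 5 (adjusted p of 0.0522 to 0.137), and with TPM.

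The 13 small-subunit factors include Heatr1, Utp4, Utp15 and Wdr43 of the complex that first joins the nascent precursor, Rrp9 and Imp4 of the U3 particle, Nop14, Noc4l and Utp20 of the processome, and the later-acting Bysl, Tsr1, Rrp12 and Nob1, the nuclease that cuts the end of 18S RNA. In the model 3 of 13 rose against control (23.1%, below the 45.5% of all tested genes) and none fell. They were Noc4l, Utp4 (0.32 ± 0.04, adjusted p = 2.11e-06) and Utp15 (0.23 ± 0.05, adjusted p = 4.11e-04), the last of them lost with quantile normalization. With WMW-H, 6 fell against the model (46.2%, near the 40.9% of all tested genes) and 1 rose, and against control 4 fell and 2 rose (30.8% and 15.4%, where 24.1% and 35.4% of all tested genes did). Noc4l stood at 10.0, 9.51, 10.7, 10.3 and 8.74 FPKM in WMW-H libraries, 15.7, 14.3, 15, 14.7 and 15.5 FPKM in the model libraries and 10.6, 12.4, 12.3, 11.3 and 11.4 FPKM in the control libraries. The model libraries were above all others, and WMW-H and control overlapped at 1 library each. Noc4l rose by 0.35 ± 0.05 in the model against control (adjusted p = 2.21e-05), fell by 0.56 ± 0.05 with WMW-H against the model (limma, adjusted p = 8.20e-08) and was 0.22 ± 0.05 lower in WMW-H than in control (log2 change of -0.22, adjusted p = 0.00237).

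Bysl stood at 6.41, 6.23, 6.33, 6.69 and 5.92 FPKM in WMW-H libraries, 8.18, 7.98, 7.66, 8.54 and 7.84 FPKM in the model libraries and 8.20, 8.63, 7.29, 7.76 and 7.94 FPKM in the control libraries. Each WMW-H library was below all model and control libraries. Bysl, bystin, fell by 0.31 ± 0.05 with WMW-H against the model (limma, adjusted p = 2.71e-05) and by 0.29 ± 0.05 against control (adjusted p = 5.73e-05); its log2 change in model against control was 0.01 ± 0.05 (adjusted p = 0.820) and turned to -0.15 with quantile normalization (adjusted p = 0.00954). Utp4 fell by 0.33 ± 0.04 with WMW-H against the model (adjusted p = 1.46e-06). Rrp9 fell by 0.34 ± 0.07 against the model (adjusted p = 2.99e-04) and by 0.23 ± 0.07 against control (adjusted p = 0.00812), with overlapping libraries in both. Calls of Nob1 and Rrp12 depended on single libraries. Nob1 (-0.16 ± 0.06 for WMW-H relative to model, adjusted p = 0.0278) was lost without model replicate 1 or 3 or WMW-H replicate 1 or 2 (adjusted p of 0.0520 to 0.0856), and with size factors and quantile normalization. Rrp12 (-0.17 ± 0.06, adjusted p = 0.0250) was lost without model replicate 3 or WMW-H replicate 1 (adjusted p of 0.0710 to 0.0775) and with the same scalings, and for WMW-H relative to control (-0.16 ± 0.06, adjusted p = 0.0371) without control replicate 2 or 4 or WMW-H replicate 1, 2 or 3 (adjusted p of 0.0509 to 0.111).

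The factors called against the direction of most small-subunit factors had weak calls. Wdr43 stood at 9.19, 8.58, 9.12, 8.53 and 8.99 FPKM in WMW-H libraries, 7.39, 8.18, 8.55, 8.56 and 7.55 FPKM in the model libraries and 7.90, 9.52, 8.39, 8.76 and 7.78 FPKM in the control libraries. The groups overlapped throughout. Wdr43 was called higher with WMW-H against the model (0.13 ± 0.06, limma adjusted p = 0.0487), a call lost on leaving out any of 9 libraries in turn (adjusted p of 0.0507 to 0.127): control replicates 3 and 4, model replicates 1, 2 and 5, and WMW-H replicates 1, 2, 3 and 5. It was also lost with TPM and without the other-tissue genes. Utp15 stood at 5.33, 5.18, 4.88, 5.15 and 5.44 FPKM in WMW-H libraries, 5.09, 5.86, 5.95, 5.53 and 5.39 FPKM in the model libraries and 4.60, 4.64, 4.59, 4.49 and 4.70 FPKM in the control libraries. The WMW-H libraries were above all control libraries and overlapped the model. Utp15 was 0.14 ± 0.05 higher in WMW-H than in control (adjusted p = 0.0137), a call lost with size factors, with quantile normalization and without the other-tissue genes. Nop14 stood at 8.46, 9.75, 10.0, 8.13 and 9.27 FPKM in WMW-H libraries, 8.19, 8.30, 9.70, 7.96 and 8.86 FPKM in the model libraries and 7.53, 7.46, 7.33, 8.88 and 8.57 FPKM in the control libraries. Nop14 overlapped between all groups, and its call for WMW-H relative to control (0.18 ± 0.07, adjusted p = 0.0332) was lost with the same 3 scalings and on leaving out control replicate 1, 2 or 3 or WMW-H replicate 2, 3 or 5 (adjusted p of 0.0600 to 0.0841). Heatr1, Utp20, Imp4 and Tsr1 passed no test, with log2 changes of -0.20 to 0.15 over the 3 comparisons.

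Of the 12 large-subunit factors 10 were higher in the model than in control (83.3%, where 45.5% of all tested genes were) and none was lower. With WMW-H 8 fell against the model (66.7%, where 40.9% of all tested genes did) and 1 rose. The 10 were Pes1, Bop1, Nop2, Nop16, Rrp1b, Rrs1, Wdr74, Ddx18, Noc2l and Ftsj3, with log2 changes of 0.13 to 0.36, and 4 of them (Pes1, Nop16, Rrp1b and Noc2l) were called under all 5 scalings. Of all tested genes 27.1% were higher under all 5 scalings, a share close to 4 of 12, so the 83.3% depended on the scaling. The 8 falls with WMW-H against the model were called under all 5 scalings, where 32.3% of all tested genes were. Noc2l, an assembly factor known from its yeast counterpart, averaged 25.1 ± 1.32 FPKM in WMW-H, 30.8 ± 0.95 FPKM in model and 23.7 ± 0.78 FPKM in control libraries. It rose by 0.36 ± 0.04 in the model against control (limma, adjusted p = 1.71e-07) and fell by 0.29 ± 0.04 with WMW-H against the model (adjusted p = 3.08e-06). The calls of Ddx18, a helicase, and Ftsj3, a methyltransferase, were lost with size factors and turned to -0.01 and -0.02 with quantile normalization. That of Ftsj3 (0.14 ± 0.05, adjusted p = 0.0300) was also lost without control replicate 2 or 3 or model replicate 1 or 5 (adjusted p of 0.0566 to 0.0843).

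Pes1, Bop1 and Wdr12 form the PeBoW complex, which is needed to process the RNA of the large subunit. Bop1 stood at 19.7, 18.2, 18.2, 18.3 and 18.8 FPKM in WMW-H libraries, 25.4, 26.0, 27.2, 27.3 and 25.7 FPKM in the model libraries and 20.9, 22.7, 22.9, 22.8 and 23.8 FPKM in the control libraries. No group overlapped another, with the model highest and WMW-H lowest. Bop1 fell by 0.47 ± 0.04 with WMW-H against the model (limma, adjusted p = 6.49e-09) and by 0.27 ± 0.04 against control (adjusted p = 9.51e-06), and it rose by 0.21 ± 0.04 in the model against control (adjusted p = 9.04e-05), a call lost with size factors and quantile normalization. Pes1 averaged 23.8 ± 1.45 FPKM in WMW-H, 28.7 ± 0.29 FPKM in model and 23.3 ± 0.99 FPKM in control libraries, with a rise of 0.29 ± 0.04 in the model against control (adjusted p = 4.92e-06) and a fall of 0.27 ± 0.04 with WMW-H against the model (adjusted p = 1.45e-05).

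Wdr12 stood at 5.27, 6.29, 4.50, 4.10 and 5.77 FPKM in WMW-H libraries, 4.91, 3.92, 4.14, 3.70 and 4.46 FPKM in the model libraries and 3.85, 4.83, 4.46, 4.12 and 3.62 FPKM in the control libraries. The groups overlapped. Wdr12, unlike most large-subunit factors, was called higher in WMW-H than in the model (0.24 ± 0.10, limma adjusted p = 0.0390) and than in control (0.25 ± 0.10, adjusted p = 0.0334). The first call was lost without model replicate 2, 3 or 4 or WMW-H replicate 1, 2 or 5 (adjusted p of 0.0651 to 0.116), and the second without control replicate 1, 4 or 5 or WMW-H replicate 1, 2 or 5 (adjusted p of 0.0556 to 0.0992). TPM and the total without other-tissue genes also ended the first, and size factors, quantile normalization and that total the second. The ratio of Bop1 to Wdr12 was 3.68 ± 0.622 in WMW-H, 6.30 ± 0.849 in model and 5.48 ± 0.697 in control libraries (SD, n = 5 each), with every WMW-H ratio below every model and control ratio. This ratio sets a gene that fell with WMW-H over one called higher, so it is a description and adds no further result. Nop2, a methyltransferase, fell by 0.35 ± 0.05 with WMW-H against the model (adjusted p = 4.15e-06) and by 0.15 ± 0.05 against control (adjusted p = 0.00907). Against the model, Rrs1, which helps to load the 5S particle in yeast, fell by 0.34 with WMW-H, and the assembly factors Nop16, Wdr74 and Rrp1b fell by 0.32, 0.28 and 0.26, each with no overlap and called under all scalings. Noc3l, a partner of Noc2l in yeast, passed no test, with log2 changes of 0.02 to 0.10.

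Levels per length differed far more between the 40 genes than between the groups. Npm1 was the most abundant in each, at 128 ± 8.97 FPKM in WMW-H, 117 ± 5.47 FPKM in model and 115 ± 2.64 FPKM in control libraries. The least abundant were Rrp1b in WMW-H (2.83 FPKM), Noc3l in the model (3.07 FPKM) and Rrp1b in control (2.61 FPKM). The median of the 40 group means was 11.8 FPKM in WMW-H, 14.9 FPKM in model and 11.8 FPKM in control libraries. Summed over the 40 genes, libraries held 718 to 747 FPKM with WMW-H, 776 to 798 FPKM in the model and 703 to 710 FPKM in control, which was 0.136 to 0.140% of the FPKM total in WMW-H, 0.152 to 0.157% in model and 0.132 to 0.134% in control libraries. With TPM, which sets a common total, the median log2 change in model against control was 0.18 for the 40 genes and 0.16 for all tested genes. For WMW-H relative to model it was -0.21 and -0.12. The higher share in the model is therefore not shown to be particular to these genes. The part of the epithelial and other-tissue shares, given above, in this sum was not tested. Within a group the genes varied little between libraries, with a median coefficient of variation of 6.42% in WMW-H, 5.83% in model and 6.05% in control. The most variable were Gar1 in WMW-H (19.0%), Gnl3 in the model (22.7%) and Imp4 in control (25.2%).

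The MYC family, whose members drive these genes in other settings, was highest in the model. Of 11 genes of the MYC network 9 rose and 1 fell in the model against control, 8 fell and 1 rose with WMW-H against the model, and 4 rose and 5 fell for WMW-H relative to control. Of all tested genes 45.5% rose and 20.6% fell in the first comparison, 25.9% rose and 40.9% fell in the second, and 35.4% rose and 24.1% fell in the last. Under all 5 scalings 5 of the 11 rose and 1 fell in the first (27.1% and 17.5% of all tested genes). The rises of Max, Mxd1, Mxd4 and Mxi1 there were not called under every scaling. In the second 1 rose and 7 fell (22.1% and 32.3%), and in the last 3 rose and 5 fell (26.6% and 23.8%). Myc stood at 15.8, 15.5, 17.3, 17.0 and 16.3 FPKM in WMW-H libraries, 22.0, 21.9, 20.1, 23.6 and 19.3 FPKM in the model libraries and 12.4, 12.9, 13.7, 12.2 and 12.7 FPKM in the control libraries. No group overlapped another, with the model highest and control lowest. Myc rose by 0.70 ± 0.05 in the model against control (limma, adjusted p = 1.90e-09), fell by 0.36 ± 0.05 with WMW-H against the model (adjusted p = 7.05e-06) and was 0.33 ± 0.05 higher in WMW-H than in control (adjusted p = 2.42e-05). Mycl stood at 8.26, 6.12, 7.07, 7.83 and 8.86 FPKM in WMW-H libraries, 20.5, 22.6, 20.2, 22.2 and 19.6 FPKM in the model libraries and 5.55, 5.45, 6.63, 5.32 and 5.78 FPKM in the control libraries. The model libraries were above all others, and WMW-H and control overlapped. The log2 change of Mycl, a close relative of Myc, was 1.71 ± 0.08 in model against control (adjusted p = 3.45e-12), -1.36 ± 0.08 for WMW-H relative to model (adjusted p = 1.34e-10) and 0.35 ± 0.08 for WMW-H relative to control (adjusted p = 9.69e-04).

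Antagonists that compete for MAX moved too. Mnt averaged 6.23 FPKM in WMW-H, 8.53 FPKM in model and 5.80 FPKM in control libraries, rising by 0.49 ± 0.06 in the model against control (limma, adjusted p = 1.37e-06) and falling by 0.40 ± 0.06 with WMW-H against the model (adjusted p = 1.16e-05). Mga rose by 0.31 ± 0.05 in the model (adjusted p = 8.56e-05) and fell by 0.50 ± 0.05 with WMW-H against it (adjusted p = 3.99e-07). Mxd1 fell by 0.31 ± 0.02 with WMW-H against the model (adjusted p = 3.47e-10) and by 0.20 ± 0.02 against control (adjusted p = 1.12e-07); its rise of 0.11 ± 0.02 in the model against control (adjusted p = 8.86e-05) turned to -0.02 with size factors. Mycn stayed low, at 0.909 FPKM in WMW-H, 1.23 FPKM in model and 0.489 FPKM in control libraries; its fall of 0.22 ± 0.08 with WMW-H against the model (adjusted p = 0.0196) was lost without model replicate 2 (adjusted p = 0.0624) or WMW-H replicate 5 (adjusted p = 0.0567) and with size factors and quantile normalization. The call of Max itself in the model against control, 0.25 ± 0.11 (adjusted p = 0.0481), was lost without control replicate 1, 2, 3 or 5, model replicate 2, 4 or 5 or WMW-H replicate 1, 2, 4 or 5 (adjusted p of 0.0511 to 0.149), and for WMW-H relative to model its log2 change of -0.21 ± 0.11 (adjusted p = 0.0947) passed without WMW-H replicate 3 (adjusted p = 0.00252). Mlx, which pairs with other members of the network, fell by 0.27 ± 0.03 in the model against control (adjusted p = 4.63e-07) and rose by 0.17 ± 0.03 with WMW-H against the model (adjusted p = 9.38e-05).

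**Figure D4:**
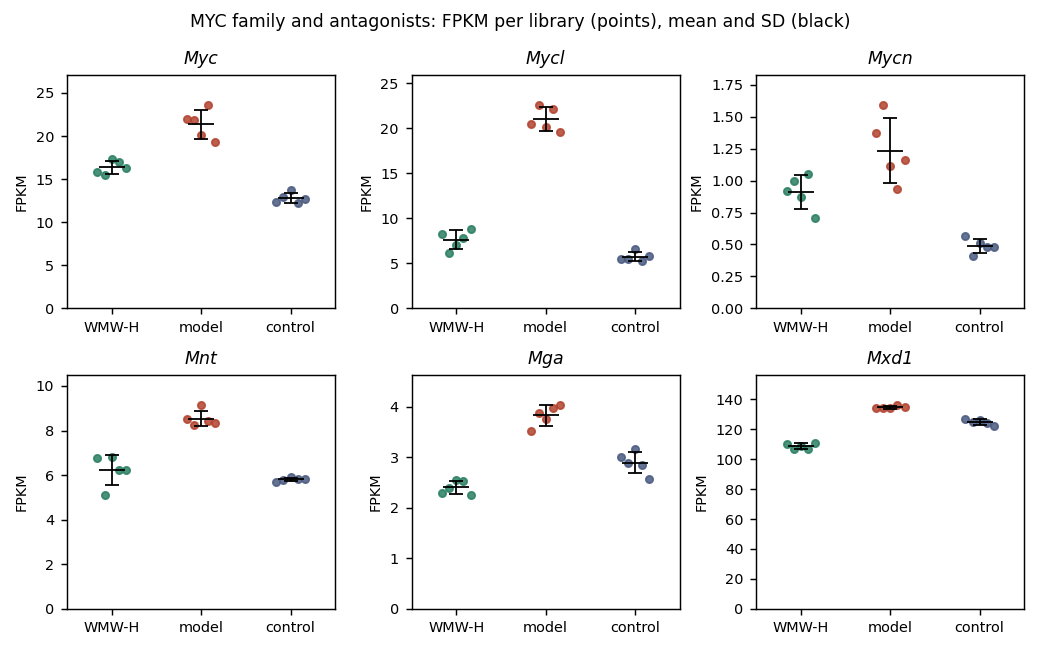
Points give FPKM in each library for 6 MYC network genes, with black lines for the mean and SD of each group of 5. Myc and Mycl are highest in the model, and Mxd1 is lowest in WMW-H.

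Ribosome biogenesis genes outside the 40 were counted in the same test. Of 133 listed, all but Exosc6, listed at 0, passed the filter. In the model against control 53 rose (40.2%) and 18 fell (13.6%), with a median log2 change of 0.11. With WMW-H against the model 40 rose (30.3%) and 52 fell (39.4%), and with WMW-H against control 47 rose (35.6%) and 24 fell (18.2%). Among all tested genes 45.5% rose and 20.6% fell in the first of these comparisons, 25.9% and 40.9% in the second, and 35.4% and 24.1% in the last. Factors of RNA polymerase I gave 6 rises and no fall among 13 in the model, with Polr1e at 0.37 ± 0.07 (limma, adjusted p = 3.10e-04) and the initiation factor Rrn3 at 0.35 ± 0.05 (adjusted p = 2.25e-05). With WMW-H against the model 6 of the 13 fell and 1 rose, namely Taf1b, a subunit of the same promoter factor as Taf1c: Taf1b rose by 0.53 ± 0.09 (adjusted p = 8.34e-05) and Taf1c fell by 0.62 ± 0.06 (adjusted p = 3.86e-08). Polymerase subunits outside the 40 did not all move alike. Mean FPKM in WMW-H and model libraries was 84.3 and 80.2 for Polr1d, 2.12 and 1.83 for Polr1f, and 3.74 and 3.84 for Polr1g. It was 4.94 and 6.11 for Polr1e, and 16.1 and 20.9 for Polr1h.

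Other snoRNP factors (11) gave 6 rises and no fall in the model, 3 rises and 5 falls with WMW-H against the model, and 5 rises and 2 falls against control. Ruvbl1, an ATPase of snoRNP assembly, rose by 0.47 ± 0.05 in the model against control (limma, adjusted p = 4.32e-07) and fell by 0.45 ± 0.05 with WMW-H against the model (adjusted p = 8.38e-07). Other small-subunit factors (42) gave 13 rises and 7 falls, 15 and 14, and 14 and 8 in the comparisons of model with control, WMW-H with model and WMW-H with control. Ltv1 rose by 0.55 ± 0.06 in the model against control (adjusted p = 2.99e-07), and Mphosph10 fell by 0.43 ± 0.08 (adjusted p = 9.86e-05). Ddx52, a helicase, rose by 0.73 ± 0.06 with WMW-H against the model (adjusted p = 2.98e-08).

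Other large-subunit factors (45) gave 22 rises and 6 falls, 12 and 21, and 18 and 9 in the same comparisons. Nsa2 stood at 54.7, 57.8, 67.0, 59.2 and 55.1 FPKM in WMW-H libraries, 30.0, 27.0, 29.0, 27.8 and 29.9 FPKM in the model libraries and 35.1, 37.0, 36.5, 33.0 and 36.7 FPKM in the control libraries. The WMW-H libraries of Nsa2, a factor of the pre-60S particle in yeast, were above all others and the model libraries below all others. Nsa2 rose by 1.00 ± 0.05 with WMW-H against the model (limma, adjusted p = 2.49e-11), and by 0.70 ± 0.05 against control (adjusted p = 3.47e-09). The protease Senp3 and its partner Pelp1 fell by 0.29 ± 0.04 (adjusted p = 6.38e-06) and 0.52 ± 0.05 (adjusted p = 3.79e-08) with WMW-H against the model. RNA exosome genes (13 of 14 tested) gave 3 rises and 1 fall, 7 and 3, and 6 and 1. Mtrex, the exosome's helicase, fell by 0.38 ± 0.05 in the model against control (adjusted p = 5.98e-06) and rose by 0.48 ± 0.05 with WMW-H against the model (adjusted p = 4.55e-07). Export and final maturation genes (8) gave 3 rises and 4 falls, 2 and 3, and 1 and 2; Eif6, which keeps the subunits apart, fell by 0.32 ± 0.02 with WMW-H against the model (adjusted p = 4.55e-09) and by 0.40 ± 0.02 against control (adjusted p = 3.69e-10).

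**Figure D5:**
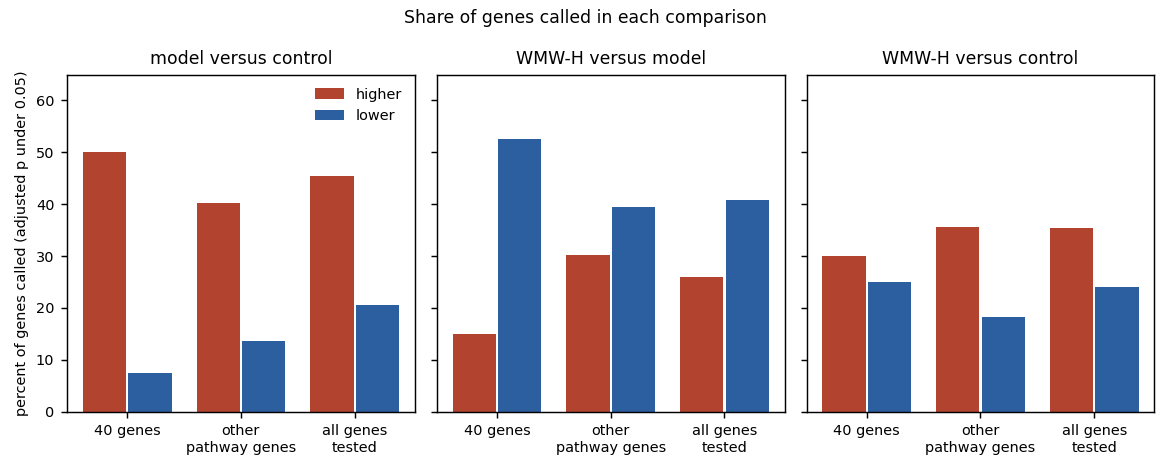
Bars give the percent of genes called higher or lower in each comparison for the 40 genes, the other pathway genes and all tested genes. In model against control the 40 genes reach 50.0% higher, near 45.5% of all tested genes, and for WMW-H relative to model 52.5% of them are lower, against 40.9% of all tested genes.

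Position added 2 features that the choice of genes did not use, both read from GENCODE M21. The introns of many ribosome biogenesis genes hold snoRNA genes, and 7 of the 40 did: Nop56, Nop58, Dkc1, Ncl, Gnl3, Wdr43 and Tsr1. The 3 genes that fell in the model against control (Nop58, Dkc1 and Gnl3) are all such hosts, with 1 host higher, against 19 higher and 0 lower among the 33 others. The call of Gnl3 was weak (limma, adjusted p = 0.0491) and was lost on leaving out any of 13 libraries in turn. In WMW-H against model 4 of the 7 hosts rose and 1 fell, against 2 rises and 20 falls among the 33. In WMW-H against control 3 hosts rose and none fell, against 9 rises and 10 falls among the 33. Over all 222 tested snoRNA hosts, 56.3% were higher and 13.5% lower in model than in control, and 31.5% were higher and 41.4% lower in WMW-H than in the model, and 50.0% were higher and 15.8% lower in WMW-H than in control. For all tested genes these shares were 45.5% and 20.6%, 25.9% and 40.9%, and 35.4% and 24.1%. The split was noticed after the values were seen and has no test.

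The second feature bears on how sure the values are. Exons of 18 of the 40 genes overlap an exon of a gene on the opposite strand, among them Nop56 with Idh3b, Dkc1 with Mpp1, Nhp2 with Rmnd5b, Mybbp1a with Spns2, Gnl3 with Pbrm1, Bop1 with Mroh1, Bysl with Ccnd3 and Wdr12 with Carf. The sources used here do not say that strand was used in counting, so reads of such pairs cannot be told apart in the overlap. Nop58, Ncl, Npm1, Fbl, Noc4l, Polr1b and Polr1c have no such overlap.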

How the data were processed

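The authors deposited 1 table of FPKM values for 15 libraries, per the file headers. Per the labels' protocols, mRNA was caught on oligo(dT) beads, and a NEBNext Ultra kit and a NovaSeq sequencer were used. Tools named in the submitters' processing notes, without order or settings, are HISAT2, RSEM, StringTie 1.3.1, Bowtie2 2.2.8 and fastp 0.18.0. The genome build, annotation and use of strand are not given in the sources used here. Because FPKM are not counts, no count test was run. Depth was estimated from the steps of low values, of which 87.7 to 92.3% lay within 0.1 of a whole fragment at the chosen depth. The libraries were fitted together in limma 3.58.1 (R 4.3.3) on log2(FPKM + 1), with a mean per group, moderation with a trend and two-sided tests, over genes reaching 1 FPKM in 5 or more libraries. On simulated data for model against control, 50 of 50 genes with a 2-fold rise and 44 of 50 with a 1.25-fold rise were recovered over 12769 genes, with 13 false calls among 201. The simulation changed few genes, as many up as down, and had no shift in scale between groups. In the data 45.5% of tested genes were called higher and 20.6% lower in this comparison. The simulation therefore checks the fit and does not give the rate of false calls in these data. The tested alternatives were another pseudocount, no filter, 4 other scalings (TPM, size factors, quantile normalization, a common total without genes of other tissues), only the compared groups, a replicate block, moderation without a trend, and leaving out each library.

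Per-library values are given for the 3 called genes with the largest rise and the 3 with the largest fall in each comparison, for Ncl, Npm1, Fbl, Nop56, Dkc1 and Polr1a, and for called genes that go against most of their role. Outside the 40, MYC network genes and up to 2 called genes per pathway list and comparison are named. The genes and lists were chosen with earlier results of these data known. Sequences come from RefSeq and gene overlaps from GENCODE M21.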

Additional observations from a re-analysis of the deposited data

Results flagged for a closer look

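In 8 of 153 sets of 5 libraries (the 40 genes and 11 of the MYC network, in 3 groups), 1 library stood apart from the other 4, and chance alone flags about 5% of such sets. Polr1c was 32.2 FPKM in control replicate 5, against 28.5 to 29.4 FPKM in the others. Gnl3 was 12.2 FPKM in model replicate 1, against 7.21 to 8.50 FPKM. Rrp1b was 2.95 FPKM in control replicate 1, against 2.48 to 2.62 FPKM. Ddx18 was 16.0 FPKM in model replicate 4, against 14.6 to 14.9 FPKM, and 12.5 FPKM in control replicate 2, against 13.7 to 14.1 FPKM. Among MYC network genes, Max was 97.2 FPKM in WMW-H replicate 3, against 65.2 to 69.0 FPKM. Mxd1 was 136 FPKM in model replicate 4, against 134 to 135 FPKM, and Mxd4 was 38.7 FPKM in WMW-H replicate 1, against 34.6 to 35.4 FPKM.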

How the results depend on the processing

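The 40 genes in 3 comparisons make 120 results, and under 24 alternatives 3 of them reversed among changes called in either setting; with a pseudocount of 0.1 all 120 kept their direction and their side of the threshold. The count of the 40 that rose in model against control, 20, was 13 with median-of-ratios size factors and 11 with quantile normalization, and the count that fell, 3, was 5 and 6. Among other pathway genes the same 2 scalings gave 26 and 19 rises (53 as reported) and 31 and 37 falls (18 as reported). Rises for WMW-H relative to model, 6, were 3 with TPM, 10 with quantile normalization and 3 with a common total without genes of other tissues. Rises for WMW-H relative to control, 12, were 7 with size factors and 6 with that common total. Without the filter, the median of the 40 relative to all genes was 0.09 in model against control (0.02 as reported), -0.15 for WMW-H relative to model (-0.09) and 0.01 for WMW-H relative to control (-0.03), since genes near 0 then enter the all-gene median. Leaving out 1 library gave 18 to 21 rises and 2 to 3 falls in model against control, 3 to 6 rises and 19 to 22 falls for WMW-H relative to model, and 9 to 12 rises and 8 to 10 falls for WMW-H relative to control. Among changes called in either setting, signs turned in model against control for Bysl (-0.15), Ddx18 (-0.01) and Ftsj3 (-0.02) with quantile normalization, for Mxd1 (-0.02) with size factors, and for Mxd4 (-0.03 with size factors, -0.01 with quantile normalization). Under the 4 other scalings the sign also turned for 16 of the 17 genes not called in model against control. The same held for 6 of 13 for WMW-H relative to model and 5 of 18 for WMW-H relative to control. Signs printed above for such genes are those of the deposited values and are not read as directions. Where not stated, the cause was not tested. Libraries with the same number did not deviate together (correlations of -0.047 to 0.030), so they share only a number. With the replicate block, 20 rose and 2 fell in model against control, 5 rose and 21 fell for WMW-H relative to model, and 11 rose and 9 fell for WMW-H relative to control.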

Other observations

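Known MYC targets outside ribosome biogenesis (23 genes in the table, all tested) gave 12 rises and 4 falls in the model against control, 10 rises and 7 falls with WMW-H against the model, and 12 rises and 5 falls with WMW-H against control. The 52.2% that rose in the model is near the 45.5% of all tested genes. With WMW-H 43.5% rose against the model and 52.2% against control, where 25.9% and 35.4% of all tested genes did. Falls were 30.4% and 21.7%, where 40.9% and 24.1% of all tested genes fell. Under all 5 scalings 7 of the 23 rose against the model and 8 against control (22.1% and 26.6% of all tested genes). Members of this list went in different directions. Cdk4, a cell cycle kinase, averaged 69.1 ± 2.59 FPKM in WMW-H, 88.3 ± 2.88 FPKM in model and 59.4 ± 3.66 FPKM in control libraries (SD, n = 5 each), with log2 changes of 0.57 in model against control and -0.35 in WMW-H against model. Tfrc, the transferrin receptor, went the other way, at 26.7 ± 1.70 FPKM in WMW-H, 20.4 ± 0.96 FPKM in model and 35.3 ± 1.04 FPKM in control libraries, with log2 changes of -0.76 and 0.37. Srm, spermidine synthase, was 17.5 ± 0.45 FPKM in WMW-H, 22.3 ± 1.02 FPKM in model and 25.2 ± 1.78 FPKM in control libraries. These 3 were chosen after their values were seen.

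Proliferation genes (15) gave 7 rises and 4 falls in the model against control, 5 rises and 7 falls with WMW-H against the model, and 4 rises and 3 falls with WMW-H against control. The 46.7% that rose in the model and the 46.7% that fell with WMW-H against it are near the 45.5% and 40.9% of all tested genes. Mki67, the classic proliferation marker, was 13.5 ± 0.98 FPKM in WMW-H, 16.9 ± 0.44 FPKM in model and 19.4 ± 0.54 FPKM in control libraries, while Top2a was 20.9 ± 0.78 FPKM, 19.5 ± 0.44 FPKM and 19.6 ± 0.33 FPKM in the same groups.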
